A study of Drosophila melanogaster with 6 samples.

Results

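Cytochrome P450 genes were described by RNA-seq of SIN3 187HA cells and S2 cells of *Drosophila melanogaster*. They were chosen by symbol alone, as every gene whose symbol opens with Cyp and a digit together with the ecdysteroid hydroxylase genes *phm*, *dib*, *sad*, *shd*, *spo* and *spok*. This rule took 87 of the 14540 rows of the deposited gene table. *Cyp1*, one of them, encodes a cyclophilin and is no cytochrome P450, so it was set apart, which left 86 rows that name 87 cytochrome P450 genes. *Cyp4ac2* and *Cyp4ac3* share a row, and *Cyp6u1* shares one with *CG30157*. S2 is a cultured line derived from late fly embryos. SIN3 187HA cells are S2 cells stably transfected with an HA-tagged cDNA of one isoform of SIN3, the scaffold protein of a histone deacetylase complex. The metallothionein promoter of the transgene responds to copper, and both lines were treated with CuSO4, so copper does not separate the groups. The labels list wild type as the genotype of all 6 samples and give 0.07 µM CuSO4 for 48 h on replicate 1 of each group. The methods of the study give another unit for the dose, name Geneticin and penicillin/streptomycin for the transfected lines and gentamycin for S2 cells, and do not say whether the line is a single clone. By western blot, the study reports that the SIN3 isoform most abundant in S2 cells was nearly lost from the transfected line. The comparison therefore holds a loss of that isoform as well as a gain of the tagged one. The transgene, the loss of that isoform, the history of the line and the drug used for selection cannot be told apart in this comparison.

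Cytochrome P450 enzymes carry a heme iron and use molecular oxygen to insert an oxygen atom into their substrate. Those of the endoplasmic reticulum receive electrons from NADPH-cytochrome P450 reductase, and those of mitochondria from a ferredoxin and its reductase. Insect members fall into the CYP2, CYP3, CYP4 and mitochondrial clans. The CYP2 and mitochondrial clans hold the enzymes that make the molting hormone ecdysone from sterols, whereas many members of the CYP3 clan and some of the CYP4 and mitochondrial clans are known for the metabolism of insecticides and plant toxins.

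The authors combined the 3 biological replicates of each group, so the table holds 1 FPKM value (fragments scaled to transcript length and to the mapped fragments of the library) per gene and group. Each value below is therefore the authors' value for a group and carries no SD. No test between the groups could be run, and no difference has a replicate check. The ratio given is the log2 of FPKM + 0.1 in SIN3 187HA cells over FPKM + 0.1 in S2 cells, which understates the change of low genes. A row was taken as expressed at 1 FPKM or more in at least 1 group, and was counted as higher or lower where the ratio reached 2-fold. *Sin3A*, which checks the labels, had 2319 FPKM in SIN3 187HA cells, against 56.9 FPKM in S2 cells. From the lowest values of the table, depth was estimated at 15900000 fragments per library for SIN3 187HA cells and 15300000 for S2 cells. At the median transcript length of the P450 rows, 1 FPKM then stands for roughly 75.4 and 72.7 fragments over the 3 libraries. Of 7 hemocyte markers, the lineage S2 cells resemble, none was listed at 0, 6 were expressed, 3 were lower (*He*, *Pxn* and *NimC1*) and 1 was higher (*ush*, whose row also names *MED15*). Their summed level was 457 FPKM in SIN3 187HA cells and 1161 FPKM in S2 cells. The 4 fat body and 2 gut markers stayed below 1 FPKM in both lines, and 2 of the 3 neuronal markers, *elav* and *brp*, were higher. *brp* passed the filter through SIN3 187HA cells alone, with 3.06 FPKM, against 0.0647 FPKM in S2 cells. Over all expressed rows, 12.8% were lower and 14.3% were higher, and the marker lists are short. The neuronal markers summed to 10.1 FPKM in SIN3 187HA cells and 2.61 FPKM in S2 cells. The part of these shifts in the results below was not tested, and in such bulk samples fewer cells of a type and less RNA per cell cannot be told apart.

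Cytochrome P450 genes were less often expressed than other genes. At 1 FPKM or more were 33 of the 86 rows in SIN3 187HA cells (38.4%) and 36 in S2 cells (41.9%), against 55.5% and 53.9% of all 14540 rows. Another 43 rows stayed below 1 FPKM in both lines, and 4 of these, *Cyp9b2*, *Cyp6a18*, *Cyp313a5* and *Cyp308a1*, were listed at 0 in both. Values of 0 were less frequent in the family than in the whole table. They made up 8.1% of P450 rows in SIN3 187HA cells and 10.5% in S2 cells, against 17.2% and 19.4% of all rows. The summed level of the family was close, at 505 FPKM in SIN3 187HA cells and 560 FPKM in S2 cells, but its make-up was not. *Cyp9c1* alone held 31.3% of the sum in SIN3 187HA cells. In S2 cells *Cyp6a20* came first, with 23.2%. *Cyp4e2*, *Cyp12a5*, *Cyp9f2* and *Cyp6a20* stood among the 5 highest of both lines, whereas *Cyp6a17* did so in S2 cells alone. Among the 10 highest, 6 rows were shared.

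**Figure D1:**
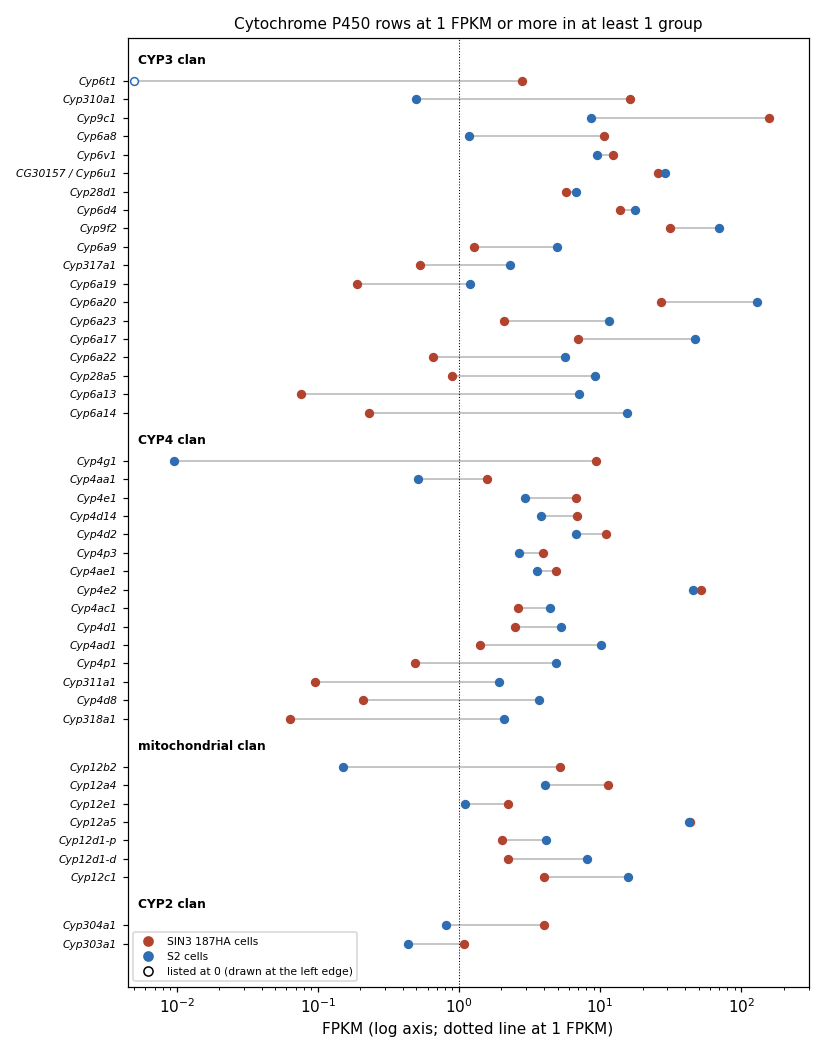
FPKM (log axis) of the 43 cytochrome P450 rows expressed in at least 1 line, by clan and ordered by ratio, each with 1 value for SIN3 187HA cells (red) and 1 for S2 cells (blue). Long lines join values that lie far apart, as for *Cyp4g1* (9.31 and 0.00953 FPKM) and *Cyp6a14* (0.232 and 15.6 FPKM), whereas both points of *Cyp12a5* nearly coincide.

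Expressed cytochrome P450 genes differed between the lines more often than other genes did. Of the 43 expressed rows, 30 lay past 2-fold (69.8%), while 27.1% of all 8498 expressed rows did. The members split into 19 lower rows (44.2%, against 12.8% of all expressed rows) and 11 higher rows (25.6%, against 14.3%). Their median ratio was -0.36 and their median absolute ratio 1.94, against -0.03 and 0.50 over all expressed rows. This median is not stable in direction: it was 0.016 without the 9 rows of the largest gene cluster and 0.10 with no filter on level.

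Low genes pass 2-fold more readily, so the members were also read at a like level. Among the 26 P450 rows whose higher value lay between 1 and 10 FPKM, 19 passed 2-fold, beside 47.3% of all rows in that range. Of the 17 rows that reached 10 FPKM, 11 passed it, beside 20.0% of all such rows. A row that entered through its higher value alone was more likely to pass 2-fold. With 1 FPKM asked for in both lines the count fell to 13 of 26 rows (50.0%), against 18.4% of all rows under that filter. The higher rows depended on how genes share loci. Among rows that name 1 gene and share their locus with no other row, 4 of 28 P450 rows were higher (14.3%), close to the 14.9% of all such rows, and 16 of 28 were lower (57.1%), against 13.6%.

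**Figure D2:**
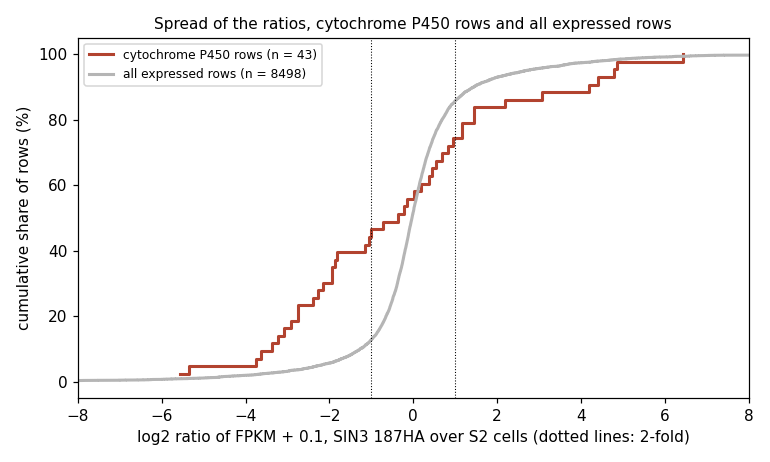
Cumulative share of rows (%) by log2 ratio of FPKM + 0.1, SIN3 187HA over S2 cells, for 43 cytochrome P450 rows (red) and 8498 expressed rows of the whole table (grey), with dotted lines at 2-fold. The red curve is flatter: 44.2% of P450 rows lie at or beyond the lower line, against 12.8% of all rows.

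The CYP3 clan held most of the lower rows. Of its 36 rows 19 were expressed, 11 were lower and 4 higher, and the median ratio of the 19 was -1.87. In the largest cluster of the family, described below, lie 7 of those lower rows and 1 of the higher ones, so the clan median leans on 1 locus. Over all expressed rows, 12.8% were lower and 14.3% higher. Within the clan, the Cyp6a subfamily counted 12 rows, of which 9 were expressed. Of those, 8 were lower and *Cyp6a8* was higher. Summed over the subfamily, levels were 49.5 FPKM in SIN3 187HA cells and 224 FPKM in S2 cells.

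The largest cluster of P450 genes covers 29.4 kb of chromosome 2R (dm3, bases 10759178 to 10788556). It holds *Cyp6a22*, *Cyp6a17*, *Cyp6a23*, *Cyp6a19*, *Cyp6a9*, *Cyp6a20*, *Cyp6a21*, *Cyp6a8* and *Cyp317a1*. *Cyp6a20*, known for its effect on male aggression, had 26.9 FPKM in SIN3 187HA cells, against 130 FPKM in S2 cells, a ratio of -2.27. *Cyp6a17*, which is needed for normal temperature preference, had 6.93 FPKM in SIN3 187HA cells and 47.0 FPKM in S2 cells (ratio -2.75). The next gene, *Cyp6a23*, had 2.09 FPKM in SIN3 187HA cells and 11.5 FPKM in S2 cells (ratio -2.40). These 3 genes stayed above 1 FPKM in SIN3 187HA cells, so their ratios rest on well-covered values in both lines.

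Lower levels in SIN3 187HA cells extended to the weaker genes of the cluster. *Cyp6a22* had 0.661 FPKM in SIN3 187HA cells and 5.65 FPKM in S2 cells (ratio -2.92). *Cyp6a9*, often raised in insecticide-resistant strains, had 1.28 FPKM in SIN3 187HA cells and 4.93 FPKM in S2 cells (ratio -1.87). *Cyp6a19* had 0.191 FPKM in SIN3 187HA cells and 1.19 FPKM in S2 cells (ratio -2.15, and -0.88 with a pseudocount of 1). *Cyp6a9* and *Cyp6a19* overlap at their exons on opposite strands in the BDGP6 annotation. Whether the libraries kept the strand is not given in the sources used here, so reads of that overlap cannot be told apart.

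At the far end of the cluster the pattern broke. *Cyp6a21* was below 1 FPKM in both lines, at 0.250 FPKM in SIN3 187HA cells and 0.490 FPKM in S2 cells. *Cyp6a8*, a gene raised in DDT-resistant strains, went the other way, with 10.7 FPKM in SIN3 187HA cells and 1.19 FPKM in S2 cells (ratio 3.06). *Cyp317a1* beyond it had 0.526 FPKM in SIN3 187HA cells and 2.32 FPKM in S2 cells (ratio -1.95). Its exons overlap those of *CG10249* on the opposite strand, and *CG10249* was lower too, at 1.83 FPKM in SIN3 187HA cells and 22.1 FPKM in S2 cells.

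The genes around the cluster differed little. Over the 24 nearest expressed rows that name no P450 gene, 12 on each side of its middle, the median ratio was -0.22, with quartiles at -0.44 and 0.07. Only 1 of the 24, *CG10249*, passed 2-fold. The cluster contributed 7 of the 19 lower rows of the family, so 12 remain without it, among 35 expressed rows (34.3%).

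**Figure D3:**
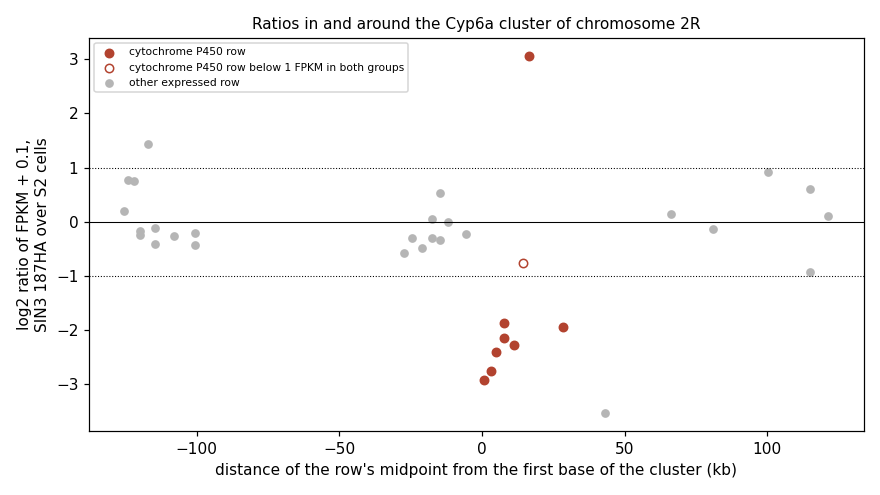
Log2 ratio of FPKM + 0.1, SIN3 187HA over S2 cells, of each row in and around the Cyp6a cluster, plotted by the distance of its midpoint from the first base of the cluster (kb). Of the 8 expressed P450 rows (filled red) 7 lie between -2.92 and -1.87 and *Cyp6a8* lies at 3.06, whereas nearly all other expressed rows (grey) lie within the dotted 2-fold lines.

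The lowest ratios of the family were those of the neighbours *Cyp6a14* and *Cyp6a13*, on 2R from 4451799 to 4459652. *Cyp6a14* had 0.232 FPKM in SIN3 187HA cells and 15.6 FPKM in S2 cells (ratio -5.56). *Cyp6a13* had 0.0762 FPKM in SIN3 187HA cells and 7.04 FPKM in S2 cells (ratio -5.34). Both were thus close to silent in one line and plainly expressed in the other, and the estimated depth puts *Cyp6a13* at 5.25 fragments over the 3 SIN3 187HA libraries. The 24 nearest expressed rows had a median ratio of -0.17, and 3 of them were lower.

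Outside the Cyp6a subfamily, *Cyp28a5* on 2L had 0.898 FPKM in SIN3 187HA cells and 9.21 FPKM in S2 cells (ratio -3.22). It lies next to the hemocyte marker genes *NimC1* and *He*, and 10 of its 24 nearest expressed rows were lower, with a median of -0.67. *Cyp9f2* on 3R was abundant in both lines, at 31.3 FPKM in SIN3 187HA cells and 69.3 FPKM in S2 cells, and its ratio of -1.14 lay just past the limit.

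Among the higher rows of the clan, *Cyp9c1* was the most abundant cytochrome P450 transcript of SIN3 187HA cells. It had 158 FPKM in SIN3 187HA cells, against 8.63 FPKM in S2 cells, an 18.3-fold difference (ratio 4.18). Its row shares the locus 2R from 20502944 to 20526110 with 3 others. None of these was near its level: *CG13594* had 0.796 FPKM in SIN3 187HA cells and 0.0524 FPKM in S2 cells, and the antisense RNA gene *CR43787* and a snoRNA gene were listed at 0 in both.

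*Cyp310a1*, with 16.4 FPKM in SIN3 187HA cells and 0.497 FPKM in S2 cells (ratio 4.79), lies within *MESR3* on the opposite strand, without overlap of exons. *MESR3* itself was higher, with 143 FPKM in SIN3 187HA cells and 61.7 FPKM in S2 cells, a ratio of 1.21, which is smaller than that of *Cyp310a1*. *Cyp6t1* had 2.80 FPKM in SIN3 187HA cells and was listed at 0 in S2 cells, so no ratio is given for it. The remaining expressed rows of the clan lay within 2-fold. *Cyp6u1* with *CG30157* had 25.8 FPKM in SIN3 187HA cells and 28.7 FPKM in S2 cells. *Cyp6d4* had 13.8 FPKM in SIN3 187HA cells and 17.7 FPKM in S2 cells. *Cyp6v1* had 12.4 FPKM in SIN3 187HA cells and 9.51 FPKM in S2 cells. These rows, and *Cyp28d1*, an enzyme of nicotine metabolism with 5.71 FPKM in SIN3 187HA cells and 6.71 FPKM in S2 cells, had similar levels in the 2 lines.

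In the CYP4 clan, 15 of 31 rows were expressed, 6 were lower, 3 were higher and 6 lay within 2-fold, with a median ratio of 0.18. Of all rows 58.4% were expressed, and of all expressed rows 12.8% were lower and 14.3% higher. The clan is best known for enzymes that hydroxylate fatty acids, and *Cyp4g1* is its specialised member that makes the hydrocarbons of the cuticle in oenocytes. *Cyp4g1* had 9.31 FPKM in SIN3 187HA cells, against 0.00953 FPKM in S2 cells. That S2 value corresponds to about 0.91 fragments over the 3 libraries, so the ratio of 6.42 is set by the pseudocount. *Cyp4g1* shares a locus of the X chromosome, from 162542 to 364670, with 16 other rows, and 8 of the 18 nearest expressed rows outside that locus were higher, with a median of 0.82.

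The other higher rows of the clan were modest. *Cyp4e1* had 6.77 FPKM in SIN3 187HA cells and 2.95 FPKM in S2 cells (ratio 1.17). *Cyp4aa1* had 1.58 FPKM in SIN3 187HA cells and 0.516 FPKM in S2 cells (ratio 1.45). With a pseudocount of 1 both dropped under 2-fold, to 0.98 and 0.77. Exons of *Cyp4aa1* overlap *Strn-Mlck* on the opposite strand, which went the other way, at 7.21 FPKM in SIN3 187HA cells and 59.5 FPKM in S2 cells.

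Lower CYP4 rows were mostly near silence in SIN3 187HA cells. *Cyp318a1* had 0.0634 FPKM there and 2.10 FPKM in S2 cells (ratio -3.75). Its neighbour *Cyp311a1* had 0.0956 FPKM in SIN3 187HA cells and 1.92 FPKM in S2 cells (ratio -3.37). The pair lies on X from 11923317 to 11929316 and was expressed only weakly even in S2 cells. *Cyp4d8* had 0.210 FPKM in SIN3 187HA cells and 3.72 FPKM in S2 cells (ratio -3.62), and *Cyp4p1* had 0.490 FPKM in SIN3 187HA cells and 4.88 FPKM in S2 cells (ratio -3.08). *Cyp4ad1* stayed above the limit of expression, with 1.42 FPKM in SIN3 187HA cells and 10.1 FPKM in S2 cells (ratio -2.76). *Cyp4d1* was a borderline case at 2.51 FPKM in SIN3 187HA cells and 5.29 FPKM in S2 cells (ratio -1.05, and -0.84 with a pseudocount of 1).

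Close relatives in this clan could part ways. *Cyp4p3* shares a locus with *Cyp4p1*, from which *Cyp4p2* parts it, yet it had 3.92 FPKM in SIN3 187HA cells and 2.68 FPKM in S2 cells. In the group of *Cyp4ad1*, *Cyp4e2* and *Cyp4e1* on 2R from 4326900 to 4339404, one row was lower, one was within 2-fold and one was higher. The middle one, *Cyp4e2*, was the most abundant gene of the clan, with 51.5 FPKM in SIN3 187HA cells and 45.5 FPKM in S2 cells. On X from 2053176 to 2075031, *Cyp4d1* was lower, whereas *Cyp4d14* (6.85 FPKM in SIN3 187HA cells and 3.79 FPKM in S2 cells), *Cyp4d2* (11.0 and 6.80 FPKM) and *Cyp4ae1* (4.89 and 3.56 FPKM) had ratios from 0.45 to 0.84. *Cyp4ac1* had 2.64 FPKM in SIN3 187HA cells and 4.46 FPKM in S2 cells, also within 2-fold.

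Mitochondrial P450 genes were divided. Of 12 rows 7 were expressed, 2 were higher, 2 were lower and 3 lay within 2-fold, and the median ratio was 0.016. The shares over all expressed rows were 14.3% higher and 12.8% lower, and 58.4% of all rows were expressed. *Cyp12a5*, on 3R from 14958174 to 14960426, was the most abundant and had nearly equal levels, at 43.2 FPKM in SIN3 187HA cells and 42.7 FPKM in S2 cells. Its tandem neighbour *Cyp12a4*, known for conferring resistance to lufenuron when overexpressed, had 11.3 FPKM in SIN3 187HA cells and 4.10 FPKM in S2 cells (ratio 1.44). *Cyp12b2* was nearly silent in S2 cells, with 5.22 FPKM in SIN3 187HA cells and 0.152 FPKM in S2 cells (ratio 4.40). Its exons overlap those of *CG42351* on the opposite strand. That gene was higher as well, with 2.22 FPKM in SIN3 187HA cells and 0.179 FPKM in S2 cells, so their reads cannot be told apart where they overlap.

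*Cyp12c1* had 4.02 FPKM in SIN3 187HA cells and 15.7 FPKM in S2 cells (ratio -1.94), while the median of its neighbours was 0.42. *Cyp12d1-d* and *Cyp12d1-p* are near-identical copies that respond to insecticides and other foreign compounds, so the division of reads between them is uncertain. *Cyp12d1-d* had 2.23 FPKM in SIN3 187HA cells and 8.12 FPKM in S2 cells (ratio -1.82), and *Cyp12d1-p* had 2.02 FPKM in SIN3 187HA cells and 4.13 FPKM in S2 cells. Summed over the pair, levels were 4.25 FPKM in SIN3 187HA cells and 12.3 FPKM in S2 cells. *Cyp12d1-p* stood just inside the limit at -0.999 and passed it with a pseudocount of 0.01. *Cyp12e1*, with 2.22 FPKM in SIN3 187HA cells and 1.10 FPKM in S2 cells, did the same on the higher side (ratio 0.95, and 1.01 with that pseudocount).

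The CYP2 clan was the least expressed. Only 2 of its 7 rows reached 1 FPKM, both in SIN3 187HA cells alone, so the filter itself favoured the higher direction. Of all rows 58.4% were expressed, and 14.3% of the expressed rows were higher. *Cyp304a1* had 4.01 FPKM in SIN3 187HA cells and 0.804 FPKM in S2 cells (ratio 2.18). *Cyp303a1*, which is required for the formation of sensory bristles, had 1.09 FPKM in SIN3 187HA cells and 0.437 FPKM in S2 cells. Its ratio of 1.15 became 0.54 with a pseudocount of 1, and its exons overlap those of *heix* on the opposite strand, a gene with 31.2 FPKM in SIN3 187HA cells and 21.4 FPKM in S2 cells.

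None of the 6 ecdysteroid hydroxylase genes was expressed at 1 FPKM in either line. Of the early enzymes, *spo* had 0.615 FPKM in SIN3 187HA cells and 0.457 FPKM in S2 cells, while its paralog *spok*, on the heterochromatic sequence of 3R in dm3, had 0.0160 FPKM in SIN3 187HA cells and 0.0195 FPKM in S2 cells. Of the hydroxylases that follow, *phm* had 0.0205 FPKM in SIN3 187HA cells and 0.0129 FPKM in S2 cells. *dib* was at 0.0114 FPKM in SIN3 187HA cells and listed at 0 in S2 cells. *sad* had 0.260 FPKM in SIN3 187HA cells and 0.105 FPKM in S2 cells. Apart from *dib* in S2 cells, the values of these 5 genes correspond to an estimated 0.961 to 67.0 fragments over 3 libraries. *shd*, which converts ecdysone to its active form in target tissues, had 0.553 FPKM in SIN3 187HA cells and 0.315 FPKM in S2 cells. *Cyp18a1*, the enzyme that inactivates the hormone, had 0.0489 FPKM in SIN3 187HA cells and 0.133 FPKM in S2 cells. No difference was read at such low levels, and the 6 hydroxylases together summed to 1.48 FPKM in SIN3 187HA cells and 0.909 FPKM in S2 cells.

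Of 9 other genes of the ecdysteroid pathway 6 were expressed, 1 was higher and 1 was lower, with a median ratio of 0.32, and this count too lies close to the 27.1% of all expressed rows past 2-fold. The remaining 3, *nvd*, *ouib* and *Eo*, stayed below 1 FPKM in both lines like the P450 genes of the pathway. The sterol carrier gene *Npc2a* had 68.3 FPKM in SIN3 187HA cells and 231 FPKM in S2 cells (ratio -1.75). *mld*, a zinc finger regulator of ecdysone synthesis genes, had 13.1 FPKM in SIN3 187HA cells and 4.66 FPKM in S2 cells (ratio 1.47). *nvd*, which encodes the enzyme of the first step from cholesterol, was listed at 0 in SIN3 187HA cells and had 0.0163 FPKM in S2 cells.

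Electron transfer partners were expressed in S2 cells throughout, and in SIN3 187HA cells with the exception of *Cyt-b5-r*. Of the 8 matched rows none was higher and 2 were lower, with a median ratio of -0.34, a count close to the 27.1% of all expressed rows past 2-fold. *Cpr*, the reductase that serves the microsomal enzymes, had 99.7 FPKM in SIN3 187HA cells and 114 FPKM in S2 cells. The row of *dare*, the mitochondrial ferredoxin reductase, had 21.0 FPKM in SIN3 187HA cells and 25.9 FPKM in S2 cells. The lower rows were *CG3566*, a cytochrome b5-like gene with 20.8 FPKM in SIN3 187HA cells and 45.6 FPKM in S2 cells (ratio -1.13), and *Cyt-b5-r*, a gene related to cytochrome b5 with 0.270 FPKM in SIN3 187HA cells and 160 FPKM in S2 cells (ratio -8.76).

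**Figure D4:**
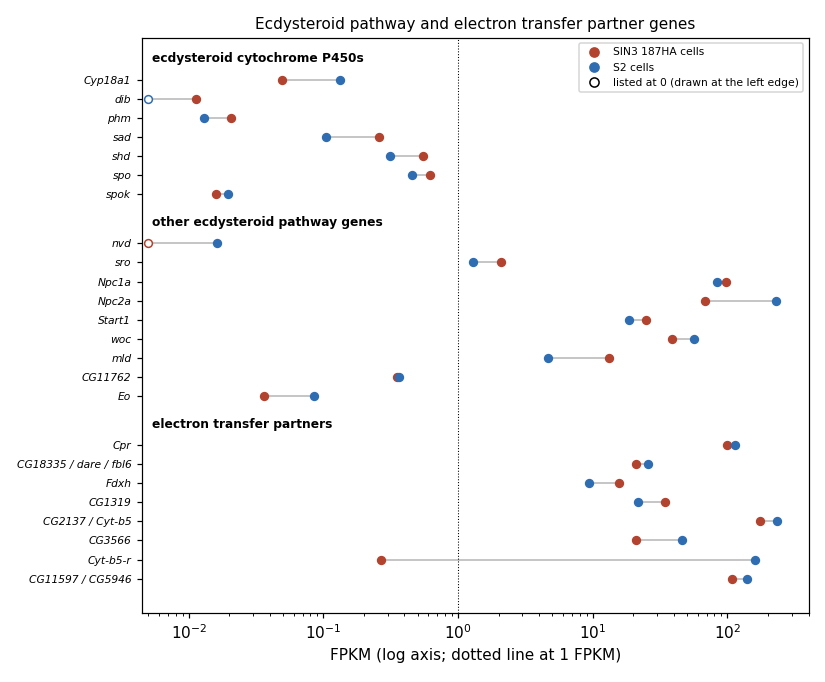
FPKM (log axis) in SIN3 187HA cells (red) and S2 cells (blue) of ecdysteroid P450 genes, other ecdysteroid pathway genes and electron transfer partners of P450 enzymes, with 1 value per group. The ecdysteroid P450 genes all lie left of the dotted line at 1 FPKM, whereas the partners lie right of it except *Cyt-b5-r* in SIN3 187HA cells (0.270 FPKM).

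P450 genes of detoxification did not all move in the same direction. Of 14 P450 genes on a list for insecticide or plant toxin metabolism 9 were expressed, 2 were higher (*Cyp6a8* and *Cyp12a4*) and 4 were lower (*Cyp6a9*, *Cyp6a17*, *Cyp6a23* and *Cyp12d1-d*), with a median ratio of -0.999. Past 2-fold lay 27.1% of all expressed rows and 69.8% of the expressed P450 rows. *Cyp6g1*, the main DDT resistance gene of the species, stayed below 1 FPKM, at 0.709 FPKM in SIN3 187HA cells and 0.370 FPKM in S2 cells. None of the 7 expressed regulators of such genes, which include *cnc*, *Keap1* and *Hr96*, passed 2-fold, beside 27.1% of all expressed rows. *Keap1* came closest with 10.6 FPKM in SIN3 187HA cells and 20.5 FPKM in S2 cells (ratio -0.94). Of 4 cuticle and hydrocarbon P450 genes, *Cyp4g1* and *Cyp303a1* were expressed and higher, while *Cyp4g15* and *Cyp301a1* stayed below 1 FPKM. The 2 higher genes reached 1 FPKM in SIN3 187HA cells alone, so the filter itself favoured this direction.

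Position along the chromosome gave no single pattern. With gaps of up to 20000 bases, 46 of the 86 rows fell into 15 clusters, and 16 pairs of adjacent rows were both expressed. In 7 of these pairs both rows were lower, in none were both higher, and in 1 pair, *Cyp6a8* and *Cyp317a1*, the calls were opposite. Most of the 7 pairs lie in the largest cluster and share rows with each other, so they are not separate events. They include *Cyp6a19* and *Cyp6a9*, whose exons overlap. Adjacent pairs were not counted over the whole table. Arm 2R held 21 of the 43 expressed rows and 12 of the 19 lower ones, where 12.1% of all expressed rows of the arm were lower. Each of the 30 rows past 2-fold also differed by at least 2-fold, in the same direction, from the median of the 24 nearest expressed rows (18 for *Cyp4g1*). Those medians ranged from -0.67 to 0.82, and with 6 rows on each side 28 of the 30 still differed so. The 30 rows were picked for their own ratio, and only 27.1% of all expressed rows passed 2-fold, so this outcome was largely fixed beforehand. The like count over all rows past 2-fold was not made. Exons of 14 of the 43 expressed P450 genes overlap those of another gene in BDGP6, 13 of them on the opposite strand. Such overlap held for 5 of the 11 higher and 3 of the 19 lower genes. How often exons overlap among all expressed genes was not counted, and the part of overlap in these calls was not tested.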

How the data were processed

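Total RNA was extracted from SIN3 187HA and S2 cells, and by the methods of the study cDNA was made from purified mRNA, with 3 libraries each. For alignment to dm3 the authors used Tophat with Bowtie2. Levels of RefSeq genes were then estimated by Cufflinks, and cuffdiff made the group comparison. The submitters' processing notes also name bcl2fastq. Versions are not given in the sources used here. The deposited FPKM values, scaled between libraries by the authors, are 1 per gene and group, so library totals, spread and pairing of replicates could not be examined. The table's fold change, test statistic, p-value and q-value columns hold the authors' own comparison and were not used.

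Ratios were computed here with a pseudocount of 0.1 FPKM, on rows at 1 FPKM or more in at least 1 group, with a limit of 2-fold (pandas 2.3.3, numpy 2.4.6). The calculation was tested on simulated data. Clans came from the family number in each symbol. Depth was estimated for genes alone at their locus with 1 transcript over 1500 nt in BDGP6, as the median of FPKM times length in kb, less 200 nt, among values up to 0.03. Each group value was taken as the mean of 3 libraries, so the estimate is rough. Neighbours were the 12 nearest expressed rows on each side. Only lengths, strands and overlaps were taken from BDGP6. Starts are given 1-based, and rows that share a locus carry its full extent. List symbols without a row were sought through RefSeq synonyms.

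Named genes are all expressed P450 rows, the ecdysteroid hydroxylases, *Cyp18a1*, *Sin3A* and list genes past 2-fold. Any other gene was picked for the text once values were known. The members and lists were chosen with earlier results of these data known. Alternatives to the pseudocount, filter, limit, scaling and shared loci were computed.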

Additional observations from a re-analysis of the deposited data

How the results depend on the processing

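No paired analysis was possible because the authors combined the replicates, and for the same reason no replicate could be left out. Beside 11 higher and 19 lower P450 rows of 43, and 2299 of 8498 rows of the whole table, asking for 1 FPKM in both lines left 4 higher and 9 lower of 26 and 1366 rows of the table, with a median of -0.19. Asking for 5 FPKM in at least 1 line gave 7 higher and 12 lower of 27, with a median of -0.23, and no filter gave a median of 0.10 over 82 rows. A 4-fold limit left 7 higher rows and 1078 in the table, and a 1.5-fold limit gave 3763 in the table. Rows alone at their locus gave 4 higher, a median of -1.48 and 1297 in the table. Leaving out the 9 rows of the largest cluster, chosen after seeing the data, gave 12 lower and a median of 0.016. The number of expressed P450 rows, 43, was 26 with 1 FPKM in both lines and 27 at 5 FPKM, both also added later. Centring on the median row or equal sums gave 11 higher and 19 lower again. Only the pseudocount and the scaling can move the ratio of a single gene: of the 43 expressed rows, 41 kept their side of the limit with a pseudocount of 0.01, 38 with a pseudocount of 1 and 43 under both scalings. Values under 1 FPKM rest on few fragments, and with 1 value per group the spread between replicates is unknown.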

Other observations

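Juvenile hormone, the partner hormone of ecdysone in insect development, has its own small set of metabolic genes. Of 5 genes of juvenile hormone metabolism 2 were expressed. *Jheh1*, an epoxide hydrolase, had 85.3 FPKM in SIN3 187HA cells and 9.69 FPKM in S2 cells (ratio 3.13), and the adjacent *Jheh2* had 111 FPKM in SIN3 187HA cells and 132 FPKM in S2 cells (ratio -0.25). *jhamt*, the enzyme of the last steps of synthesis, stayed at 0.317 FPKM in SIN3 187HA cells and 0.0827 FPKM in S2 cells.

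Below 1 FPKM in both lines, 2 P450 genes picked after their values were seen still lay far apart. *Cyp4s3* had 0.0199 FPKM in SIN3 187HA cells and 0.844 FPKM in S2 cells, and *Cyp4c3* had 0.777 FPKM in SIN3 187HA cells and 0.0639 FPKM in S2 cells. The lower value of each corresponds to an estimated 1.98 and 5.01 fragments. The cyclophilin gene *Cyp1*, which the symbol rule also took, had 227 FPKM in SIN3 187HA cells and 626 FPKM in S2 cells (ratio -1.46).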
